A study of Homo sapiens with 6 samples.

Results

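Tubulin genes encode the subunits of microtubules, and 10 of them were examined by name among the 58735 genes of the expression table: TUBA1A, TUBA1B, TUBA1C and TUBA4A (alpha), TUBB, TUBB2A, TUBB3, TUBB4B and TUBB6 (beta), and TUBG1 (gamma). The cells were MDA-MB-231, an established line grown from a human breast adenocarcinoma of basal-like type, carrying a non-targeting shRNA (shSCR, named SCR in the labels, which give the genotype as WT). Polyadenylated RNA was sequenced from 3 libraries of cells given 0 Gy and 3 libraries of cells given 10 Gy of gamma rays from a caesium source, with RNA collected at 24 h. All 6 libraries therefore share the shSCR construct, and the labels do not say whether replicates were separate cultures, so p-values measure only the spread between these libraries. Libraries with MAFF knockdown were not analysed here. Values are FPKM, fragments per kilobase of gene scaled to depth, which makes levels of different genes comparable per length.

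Alpha- and beta-tubulin pair into heterodimers that assemble into microtubules, the tracks of the mitotic spindle and of intracellular transport. Gamma-tubulin sits in a ring complex that starts new microtubules at the centrosome. Alpha and beta isotypes come from separate genes and differ most in their carboxy-terminal tails, where enzymes remove or add tyrosine and add glutamate chains. Cells also adjust tubulin mRNA to the amount of free tubulin: TTC5 binds the opening residues of tubulin as it leaves the ribosome and, with SCAPER and the CCR4-NOT deadenylase, the mRNA is degraded.

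The beginnings of the coding sequences are shown because that regulation reads the protein they encode. Each line gives the first 30 coding bases from GENCODE 29 transcripts on GRCh38, with the first 12 in capitals.
TUBA1A, TUBA1B and TUBA1C: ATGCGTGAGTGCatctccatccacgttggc
TUBA4A: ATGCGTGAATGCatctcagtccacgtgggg
TUBB: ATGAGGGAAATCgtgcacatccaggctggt
TUBB4B: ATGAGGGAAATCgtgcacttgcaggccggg
TUBB2A: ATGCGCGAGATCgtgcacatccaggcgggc
TUBB6: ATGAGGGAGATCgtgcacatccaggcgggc
TUBB3: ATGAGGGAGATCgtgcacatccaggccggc
TUBG1: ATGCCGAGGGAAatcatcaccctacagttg
The alpha genes used 2 different 12-base openings and the beta genes 3. TUBB and TUBB4B have the same 12-base opening.

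The ends of the beta coding sequences, except that of TUBB3, are shown because they tell isotypes apart. Each line gives the last 60 coding bases before the stop codon, with the last codon in capitals.
TUBB: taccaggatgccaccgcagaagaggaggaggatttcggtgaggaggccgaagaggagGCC
TUBB4B: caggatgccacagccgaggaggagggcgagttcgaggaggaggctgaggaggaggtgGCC
TUBB6: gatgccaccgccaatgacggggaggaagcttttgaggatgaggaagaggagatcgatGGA
TUBB2A: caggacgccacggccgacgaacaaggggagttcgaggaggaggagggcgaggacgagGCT
The end of TUBB lies at chr6:30724335-30724394 and that of TUBB4B at chr9:137243494-137243553, both on the plus strand. Over the whole coding sequence, alpha members were 84.4% to 97.2% identical to each other (the highest for TUBA1A and TUBA1B), beta members 81.0% to 87.7%, and alpha against beta 55.4% to 58.1%.

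Near-identical genes can share reads, so the 150-base windows of each member's transcript that occur in another gene's transcripts were counted. None of the windows of the printed TUBB4B and TUBB6 transcripts was shared. The share was 6.22% for TUBG1 (with TUBG2) and 7.88% for TUBA1A (106 windows each in TUBA1B and AC011603.2). For TUBB the share was 18.0%, where 390 windows were also in AL662797.1, on the opposite strand, and 63 in the pseudogene TUBBP1. It was 23.9% for TUBA1C (489 windows in AC125611.3 and 177 in TUBA1B) and 23.7% for TUBA4A (all in STK16). For TUBA1B it was 64.2%, mainly with AC011603.2, a gene on the opposite strand of the same locus, and 177 of its windows were also in TUBA1C. For TUBB2A it was 49.4%, from 714 windows in its near copy TUBB2B, and for TUBB3 88.7%, from AC092143.1, which runs through the same locus. The sources used here do not say whether counting used strand, so reads in 490 exon bases that TUBA1A and TUBA1C share on opposite strands, in 627 that TUBA4A shares with STK16 and in 837 that other exons of TUBB6 share with AFG3L2 (10.1 and 8.51 FPKM at 0 and 10 Gy), cannot be told apart. In 1584 exon bases that TUBB3 shares with AC092143.1, on the same strand, strand would not tell reads apart either. Values of these members are uncertain to that extent.

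Recovered whole reads on genes were between 15643641 and 28861781 per library. The line markers VIM, CD44, LGALS1 and CAV1 had means of 301, 78.6, 589 and 117 FPKM at 0 Gy and of 251, 73.0, 591 and 97.0 FPKM at 10 Gy. Of these 4, 3 were called lower, where 23.7% of all genes tested were, and 50.7% of those at 50 FPKM or more. Under TPM 2 were lower and 1 higher, where 8.79% of all genes were lower and 25.7% higher. The part of these line markers in the tubulin changes was not tested. At 0 Gy the luminal and epithelial markers ERBB2, GATA3, EPCAM, CDH1 and ESR1 had 7.08, 3.05, 1.44, 0.324 and 0.00872 FPKM and PGR was listed at 0. Among markers of other cells, PTPRC, DCN and ALB had means of at most 0.0133 FPKM in either group, and PECAM1 rose from 1.22 to 1.94 FPKM.

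In unirradiated cells TUBB4B and TUBB were the most abundant beta-tubulin mRNAs and TUBA1B the most abundant alpha-tubulin mRNA. Mean levels at 0 Gy (± SD, n = 3) were 642 ± 20.4 FPKM for TUBB4B, 587 ± 0.836 for TUBB, 311 ± 10.6 for TUBA1B and 169 ± 6.82 for TUBA1C. They were 64.6 ± 2.33 for TUBG1, 55.1 ± 3.18 for TUBB6, 26.1 ± 1.3 for TUBB2A, 19.4 ± 0.803 for TUBA1A, 18.4 ± 1.32 for TUBA4A and 0.239 ± 0.0612 for TUBB3. Every neighbouring pair in this order had separate ranges at 0 Gy except TUBA1A and TUBA4A, which overlapped. At 10 Gy TUBA1A was 1.67 times TUBA4A with separate ranges. There TUBG1 (53.1 to 55.2 FPKM) lay just below TUBB6 (55.4 to 57.2 FPKM), the reverse of their order at 0 Gy. The length deposited for each gene is the union of its exons. Per kilobase of the transcript printed above, TUBB6 stood above TUBG1, and TUBA1A and TUBA4A above TUBB2A, at 0 Gy, and TUBA1B (557.3) stood level with TUBB (556.8) at 10 Gy, so those places in the order rest on the length used.

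**Figure D1:**
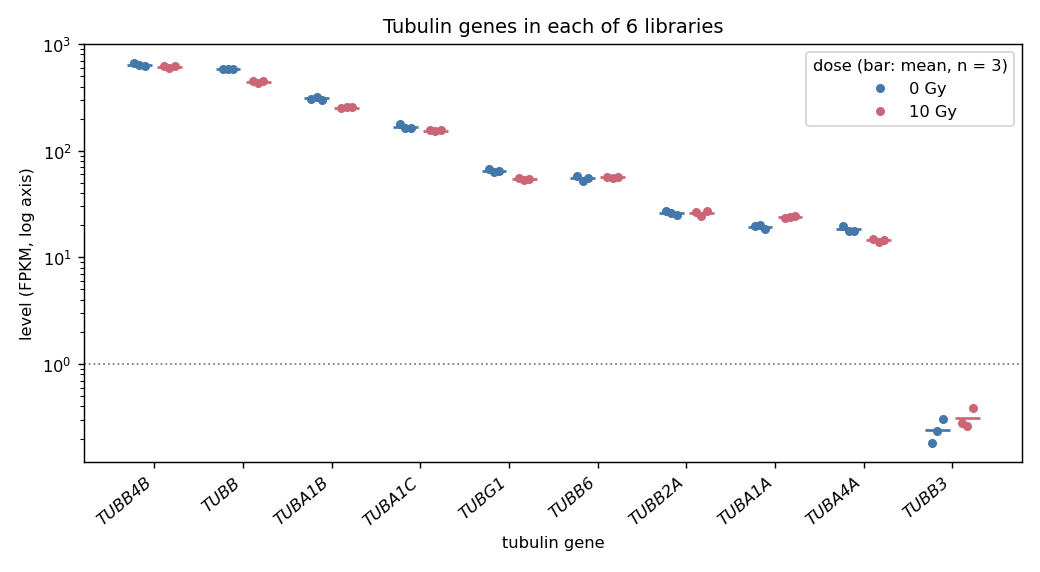
Level of each tubulin gene in FPKM (log axis) in each of the 6 libraries, with points for libraries and bars for the mean of 3. TUBB at 10 Gy lies between 431 and 449 FPKM, below all 0 Gy libraries, whereas TUBA1A at 10 Gy lies above them, and TUBB3 lies under the dotted line at 1 FPKM.

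After 10 Gy, TUBB, TUBA1B, TUBA4A and TUBG1 fell, TUBA1A rose, and TUBB4B, TUBB6 and TUBB2A did not pass the test. TUBA1C was called lower too, but lost that call under 10 of 18 alternatives. TUBB, the main beta isotype of dividing cells, fell the most, to 0.754 of its mean at 0 Gy. Of the 9 members with a mean of at least 1 FPKM, 6 were called by limma on log2(FPKM + 1) at a Benjamini-Hochberg adjusted p under 0.05 over all 12128 genes tested, 5 lower and 1 higher, while under TPM 4 were lower and 3 higher. The background was high: 35.6% of all genes tested were called, 23.7% lower and 11.9% higher (4317 genes, but 2705 without 10 Gy replicate 1 and 2660 without 10 Gy replicate 2). That excess of lower calls holds for the FPKM as deposited, and under TPM 25.7% of all genes were called higher and 8.79% lower. With a change of at least 1.3-fold as well, 5.77% of all genes (2.95% lower and 2.82% higher) and TUBB alone of the members were called. This too holds for the FPKM as deposited. Rescaled, the log2 change of TUBB fell short of 1.3-fold: -0.28 under TPM, -0.31 under upper quartile, -0.36 under median-of-ratios and -0.33 under recovered-read scaling. That of TUBA1A passed it under TPM (0.43) and upper quartile (0.383), but not under median-of-ratios (0.34) or recovered-read scaling (0.37). The median change of the 9 members was -0.13, against -0.04 for all genes tested and -0.14 for the 889 genes at 50 FPKM or more, of which 50.7% were called lower. In bulk RNA, a different mix of cells and a different amount of RNA per cell cannot be told apart.

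TUBB was at 586, 586 and 588 FPKM at 0 Gy and at 449, 431 and 448 FPKM at 10 Gy. The groups lay far apart against a spread of 0.836 and 10.3 FPKM (SD). Its change was -0.41 (SE 0.038, limma, Benjamini-Hochberg adjusted p = 0.000707), and 302 of the 12128 genes tested had a lower one. TUBB lies at chr6:30720201-30725426 on the plus strand of GRCh38.

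TUBB4B, a beta isotype made in most tissues, was at 665, 635 and 626 FPKM at 0 Gy and at 620, 603 and 620 FPKM at 10 Gy. The highest irradiated library lay just below the lowest control. Its change of -0.06 (SE 0.043, limma, Benjamini-Hochberg adjusted p = 0.290) was not called, and its sign turned to 0.07 when values were rescaled to TPM. TUBB4B lies at chr9:137241213-137243707 on the plus strand. The ratio of TUBB4B to TUBB, which no scaling of a library can alter, was 1.13, 1.08 and 1.06 at 0 Gy and 1.38, 1.40 and 1.38 at 10 Gy. Its log2 difference was 0.34 (two-sided exact permutation p = 0.1, the smallest that 3 libraries against 3 allow).

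TUBB6 was at 58.4, 52.1 and 55.0 FPKM at 0 Gy and at 57.2, 55.4 and 56.2 FPKM at 10 Gy, and the groups overlapped. Its change was 0.03 (SE 0.044, limma, Benjamini-Hochberg adjusted p = 0.624). TUBB2A was at 27.5, 26.0 and 24.9 FPKM at 0 Gy and at 26.8, 24.6 and 27.3 FPKM at 10 Gy, also overlapping, with a change of 0.01 (SE 0.052, limma, Benjamini-Hochberg adjusted p = 0.932). Under TPM both were called higher, by 0.16 for TUBB6 and 0.13 for TUBB2A (limma, Benjamini-Hochberg adjusted p = 0.0202 and 0.0491). TUBB6 lies at chr18:12307669-12344320 (plus strand) and TUBB2A at chr6:3153669-3157526 (minus strand).

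TUBB3, the beta isotype of neurons that many carcinomas also make, was at 0.180, 0.235 and 0.302 FPKM at 0 Gy and at 0.279, 0.260 and 0.386 FPKM at 10 Gy. These values rest on 17, 16 and 29 reads at 0 Gy and 37, 21 and 37 at 10 Gy. The groups overlapped, and the gene lay under the 1 FPKM minimum and was not tested. TUBB3 shares 1584 of its 4430 exon bases with AC092143.1, on the same strand and listed at 0. Whether reads were lost in this overlap was not tested, so its low level and share are uncertain. TUBB3 lies at chr16:89921392-89938761 on the plus strand.

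TUBA1B, a ubiquitous alpha isotype, was at 308, 322 and 302 FPKM at 0 Gy and at 251, 256 and 255 FPKM at 10 Gy. All irradiated libraries lay below all controls, and the change was -0.29 (SE 0.038, limma, Benjamini-Hochberg adjusted p = 0.00199). TUBA1C, its near neighbour on chromosome 12, was at 176, 165 and 165 FPKM at 0 Gy and at 155, 152 and 155 FPKM at 10 Gy. The groups did not overlap, and the change was -0.13 (SE 0.038, limma, Benjamini-Hochberg adjusted p = 0.0369). The call was lost when single irradiated libraries were left out: leaving out 10 Gy replicate 1, 2 or 3 gave adjusted p = 0.0985, 0.129 and 0.0874 in limma, and TPM gave a change of -0.00. TUBA1B lies at chr12:49127782-49131397 (minus strand) and TUBA1C at chr12:49188736-49274603 (plus strand).

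TUBA1A, the alpha isotype prominent in developing neurons, was at 19.8, 20.0 and 18.5 FPKM at 0 Gy and at 23.6, 24.0 and 24.4 FPKM at 10 Gy. Every irradiated library was above every control. The change was 0.29 (SE 0.038, limma, Benjamini-Hochberg adjusted p = 0.00186), and 781 of the 12128 genes tested had a higher one. TUBA1A, at chr12:49184796-49189324 on the minus strand, was called higher under all 18 alternatives, between 0.25 and 0.43. The direction was opposite to that of TUBA1B, whose coding sequence is 97.2% identical.

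TUBA4A was at 19.9, 17.7 and 17.5 FPKM at 0 Gy and at 14.8, 13.9 and 14.5 FPKM at 10 Gy, without overlap. It fell by 0.33 (SE 0.053, limma, Benjamini-Hochberg adjusted p = 0.00403). STK16, on the other strand of part of TUBA4A, was at 6.65 and 6.35 FPKM. TUBA4A lies at chr2:219249711-219278170 on the minus strand.

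TUBG1, the main gamma-tubulin, was at 67.2, 62.6 and 64.0 FPKM at 0 Gy and at 55.2, 53.1 and 54.3 FPKM at 10 Gy. The groups did not overlap, and it fell by 0.25 (SE 0.036, limma, Benjamini-Hochberg adjusted p = 0.00275). TUBG2, the second gamma-tubulin gene, was higher, with means of 6.26 and 8.75 FPKM and a change of 0.43 (SE 0.080, limma, Benjamini-Hochberg adjusted p = 0.00714). The log2 ratio of TUBG2 to TUBG1 rose by 0.74 without overlap (two-sided exact permutation p = 0.1, the smallest possible). TUBG1 lies at chr17:42609676-42615234 on the plus strand.

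In all, the groups did not overlap for 7 of the 9 tested members, 6 below and TUBA1A above, where 51.9% of all genes tested did not overlap, 32.8% below and 19.1% above. Changes depend on the scaling, since rescaling to TPM moved the median of all genes by 0.12, from -0.04 to 0.08. Relative to that median the change of TUBB was -0.37 as deposited and -0.36 as TPM, that of TUBA1B -0.25 and -0.24, that of TUBA4A -0.29 and -0.29, and that of TUBA1A 0.33 and 0.35. Not taken relative to the median, the TPM changes were -0.28 for TUBB, -0.16 for TUBA1B, -0.22 for TUBA4A, -0.12 for TUBG1 and 0.43 for TUBA1A. TUBB, TUBA1B, TUBA4A, TUBG1 and TUBA1A were called in the same direction under all 18 alternatives.

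**Figure D2:**
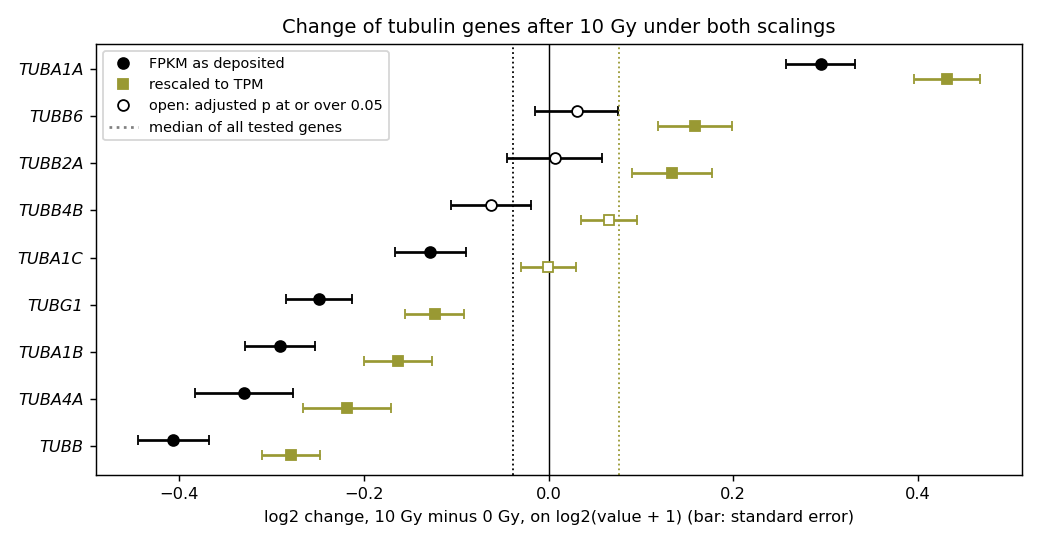
Change of the 9 tested tubulin genes in log2(value + 1), 10 Gy minus 0 Gy, with bars for the standard error, from the FPKM as deposited (circles) and from TPM (squares). Open symbols had an adjusted p of 0.05 or more, and dotted lines mark the median of all genes tested, -0.04 for FPKM and 0.08 for TPM. The TPM value lies to the right of the FPKM value for all 9 genes.

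**Figure D3:**
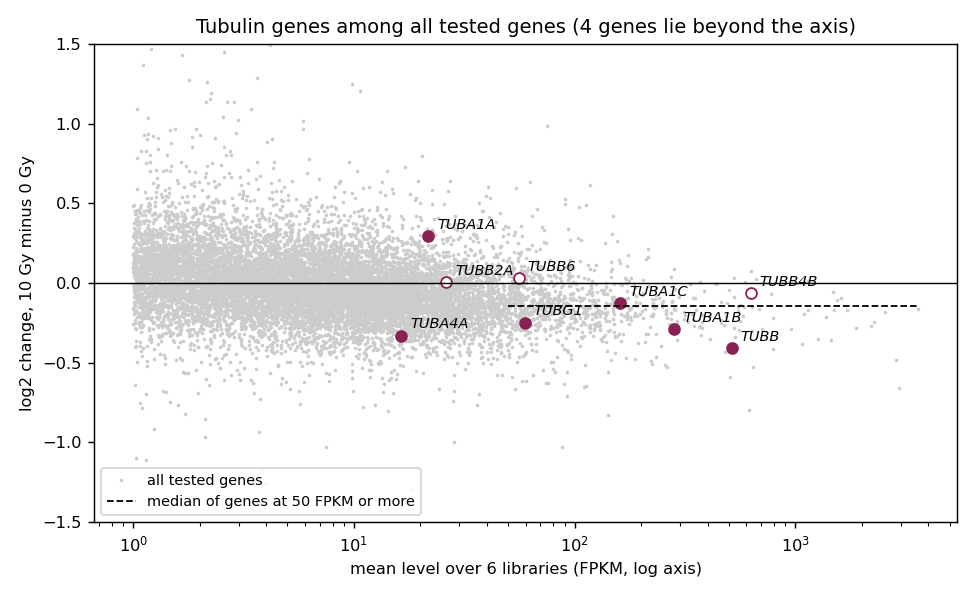
Change against mean level over 6 libraries (FPKM, log axis) for all 12128 genes tested (grey) and the tubulin genes (filled where called). The dashed line is the median of the 889 genes at 50 FPKM or more, -0.14; TUBB and TUBA1B lie below it, TUBA1C near it and TUBB4B above it.

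Summed over the members, alpha-tubulin mRNA fell from 517 ± 12.8 to 446 ± 2.24 FPKM (SD, n = 3) and beta-tubulin mRNA from 1310 ± 23.5 to 1140 ± 22.5 FPKM, without overlap. The log2 differences were -0.21 and -0.20, each with a two-sided exact permutation p = 0.1, the smallest possible, and they were -0.08 and -0.07 under TPM. The ratio of beta to alpha was 2.54 ± 0.0515 at 0 Gy and 2.56 ± 0.0492 at 10 Gy (SD, n = 3, two-sided exact permutation p = 0.6), and the groups overlapped. Without 0 Gy replicate 2 or 10 Gy replicate 1 its log2 difference of 0.01 turned to -0.01 and -0.00060. Per kilobase of the printed transcripts the alpha sums were 1012 and 866, the beta sums 1705 and 1491 and the ratio 1.68 and 1.72, so these levels rest on the length used, while the log2 differences of the sums, -0.23 and -0.19, kept their sign.

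Within each class the makeup shifted. TUBB went from 44.8% ± 0.842 to 38.8% ± 0.144 of beta-tubulin mRNA, and TUBB4B from 49.0% ± 0.684 to 53.9% ± 0.197 (SD, n = 3). TUBB6 went from 4.21% to 4.94% and TUBB2A from 1.99% to 2.30%. Of alpha-tubulin mRNA, TUBA1B went from 60.1% to 56.9%, TUBA1C from 32.6% to 34.5%, TUBA1A from 3.75% to 5.38% and TUBA4A from 3.55% to 3.23%. Each of these 8 shares had separate groups and a two-sided exact permutation p = 0.1, the smallest possible, while that of TUBB3, 0.0183% and 0.0270%, overlapped. The shares of a class add up to its whole, so they are not independent, and a lower share of any gene raises the others. TUBA1C gained share though its level changed by -0.13 as deposited. TUBB4B, TUBB6 and TUBB2A gained share without being called as deposited. Without 0 Gy replicate 1 the difference in the TUBA4A share, -0.33 percentage points, was -0.21. The log2 ratio of TUBA1A to TUBA1B rose by 0.60 (two-sided exact permutation p = 0.1). With 18 sums, shares and ratios computed, none could pass a correction.

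**Figure D4:**
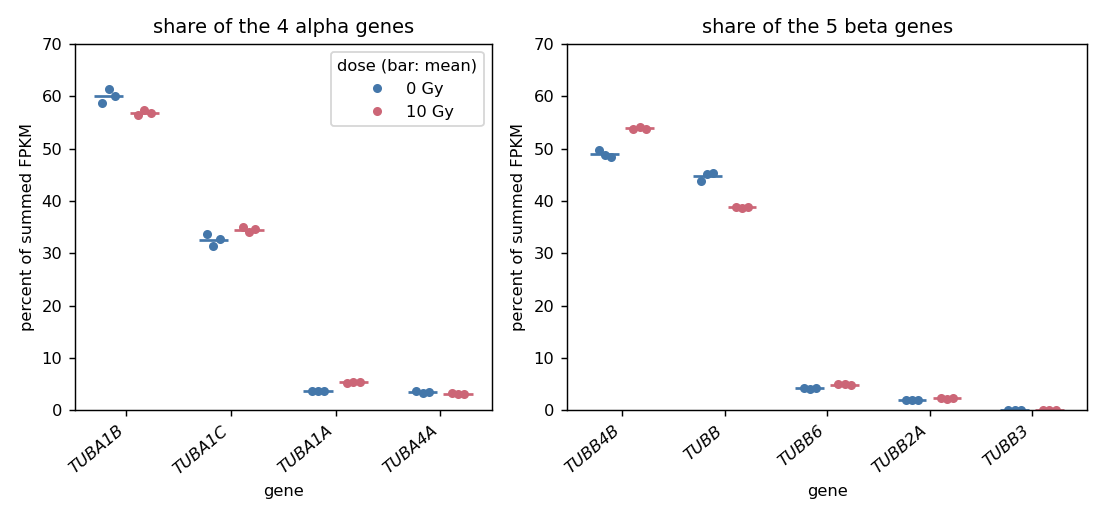
Share of each gene in the summed FPKM of the 4 alpha and the 5 beta genes (percent), with points for the 6 libraries and bars for the mean of 3. TUBB4B and TUBB lie near each other at 0 Gy, 49.0% and 44.8%, and further apart at 10 Gy, 53.9% and 38.8%.

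Stretches of promoter are shown for the most abundant members, with letters known from cell-cycle and housekeeping promoters in capitals. They are the CCAAT box in TUBB and TUBB4B, the TTTGAA letters in TUBB4B and the GGGCGG letters, read on the other strand, in TUBA1B. They are RefSeq sequence on GRCh38.p14, on the gene's strand.
TUBB, chr6:30720142-30720200, plus: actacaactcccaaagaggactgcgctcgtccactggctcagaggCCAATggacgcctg
TUBA1B, chr12:49131405-49131475, minus: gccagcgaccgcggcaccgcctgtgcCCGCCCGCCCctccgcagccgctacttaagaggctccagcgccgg
TUBB4B, chr9:137241037-137241196, plus: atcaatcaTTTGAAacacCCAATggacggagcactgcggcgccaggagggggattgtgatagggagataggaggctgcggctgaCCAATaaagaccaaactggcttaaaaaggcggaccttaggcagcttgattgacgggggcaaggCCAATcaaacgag
The 10 members have 15 RefSeq windows of 300 bases, from 250 before to 50 after a start site. CCAAT occurred in 9 of these windows and in 34.6% of all 35116 windows, GGGCGG in 9 and 45.0%, TTTGAA in 4 and 15.2%, and TTCGAA in 1 and 1.45%. TGACNNNGC, the core letters read by small MAF dimers such as those of MAFF, occurred in 1 member window, of TUBB3, and in 13.3% of all windows. TUBA1A, which rose, had CCAAT letters 125 and 88 bases before its start, and TUBB, which fell, had them 165 bases before one of its starts. The windows are not independent, since 3 of the 4 with TTTGAA belong to TUBA1C, and 2 overlapping windows of TUBA1C hold the same CCAAT letters. These are letter matches and describe the windows only.

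Of a list of other tubulin genes, with 13 in the table, 4 had a mean of at least 1 FPKM, and 2 of these were called, where 35.6% of all genes were. TUBG2 rose, and TUBE1, the epsilon-tubulin of centrioles, fell from 2.09 to 1.63 FPKM with a change of -0.24 (limma, Benjamini-Hochberg adjusted p = 0.0183). TUBD1 and TUBB2B changed by 0.06 and -0.08 and were not called. Without 10 Gy replicate 1 or 10 Gy replicate 3 only 1 of the 4 genes was called, as under TPM.

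Among 11 genes of the gamma-tubulin ring complex, 5 fell and none rose as deposited (45.5% called, where 35.6% of all genes were, 23.7% lower), while 2 fell and 2 rose under TPM. The list median was -0.18. TUBGCP3, a core subunit of the ring, fell by 0.33, NME7 by 0.25, MZT2B by 0.24, the targeting factor NEDD1 by 0.23 and MZT2A by 0.20. The most abundant not called were MZT1, with 40.4 and 40.7 FPKM, and TUBGCP2, with 20.6 FPKM in both groups. The count was 3 without 0 Gy replicate 3, 10 Gy replicate 1 or 10 Gy replicate 2.

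Tubulin folding genes, which cover the CCT chaperonin, prefoldin and the tubulin cofactors, had 16 of 21 members called (76.2%, where 35.6% of all genes were), 15 lower and 1 higher. Under TPM 3 were lower and 1 higher, or 19.0% called where 34.5% of all genes were, so the list stood above the background as deposited and below it as TPM. PFDN2 of prefoldin fell by 0.37, PFDN6 by 0.31 and the cofactor TBCB by 0.24, while the chaperonin subunit CCT5 fell by 0.21. The exception was TBCEL, a cofactor-like protein that destabilises tubulin, which rose by 0.21. CCT4 and VBP1 changed by -0.11 and -0.10 and were not called. The list median was -0.14 as deposited and -0.02 under TPM. The 889 genes at 50 FPKM or more, which include the CCT subunits and PFDN2, also had a median of -0.14 as deposited, with 57% called. The count of called folding genes fell to 7 without 10 Gy replicate 1 and to 8 without 10 Gy replicate 2.

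In the autoregulation list, 5 of 12 genes were called (41.7%, near the 35.6% of all genes), 3 lower and 2 higher, against 3 higher and 0 lower under TPM. TTC5, the ribosome-binding recognition factor, had means of 2.40 ± 0.0707 and 1.87 ± 0.136 FPKM (SD, n = 3) and a change of -0.24 (limma, Benjamini-Hochberg adjusted p = 0.0183). CNOT6L and CNOT1 of the deadenylase rose by 0.25 and 0.23. CNOT10 fell by 0.23 and CNOT9 by 0.17. CNOT11, CNOT8 and SCAPER, with changes of -0.09, -0.02 and -0.05, were not called. The count was 3 without 10 Gy replicate 1 or 10 Gy replicate 2.

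Of 22 tubulin-modifying enzymes, 14 were tested and 4 called (28.6%, below the 35.6% of all genes), 3 lower and 1 higher as deposited, and 2 lower and 2 higher under TPM. SVBP, the partner of the vasohibin enzymes that remove the final tyrosine of alpha-tubulin, went from 5.50 ± 0.213 to 3.55 ± 0.238 FPKM (SD, n = 3), a change of -0.51 (limma, Benjamini-Hochberg adjusted p = 0.000978). TTLL12, of the tyrosine ligase-like family, fell by 0.42 and TTL, the ligase that adds the tyrosine back, by 0.22. SIRT2, a tubulin deacetylase, rose by 0.16. Averaged over the 6 libraries, the most abundant not called were AGTPBP1, which shortens glutamate chains, and the deacetylase HDAC6. AGTPBP1 had 16.3 and 15.4 FPKM and HDAC6 had 4.04 and 4.2 FPKM. TTLL4, also not called, stood above HDAC6 at 0 Gy (4.19 FPKM) and below it at 10 Gy (3.87 FPKM).

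Of 32 genes of microtubule dynamics, 26 were tested and 9 called (34.6%, near the 35.6% of all genes), 5 lower and 4 higher as deposited, and 3 lower and 8 higher under TPM. MAP7D3 fell by 0.45, whereas CKAP5, a microtubule polymerase, and STMN3, of the stathmin family that binds tubulin dimers, each rose by 0.32. STMN1 and MAP7D1, the most abundant not called, changed by -0.07 and -0.08.

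Most G2/M marker genes rose. Of 18 tested, 15 were called (83.3%, where 35.6% of all genes were, 11.9% higher), 14 higher and 1 lower, with a median of 0.28 and none at 0. Their summed level was 1247 to 1274 FPKM at 0 Gy and 1510 to 1516 FPKM at 10 Gy. KIF20A rose by 0.64, CCNB2 by 0.55 and AURKA by 0.49, AURKB fell by 0.22, and CCNA2 and MKI67 were not called. The part of this list in the tubulin changes was not tested.

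**Figure D5:**
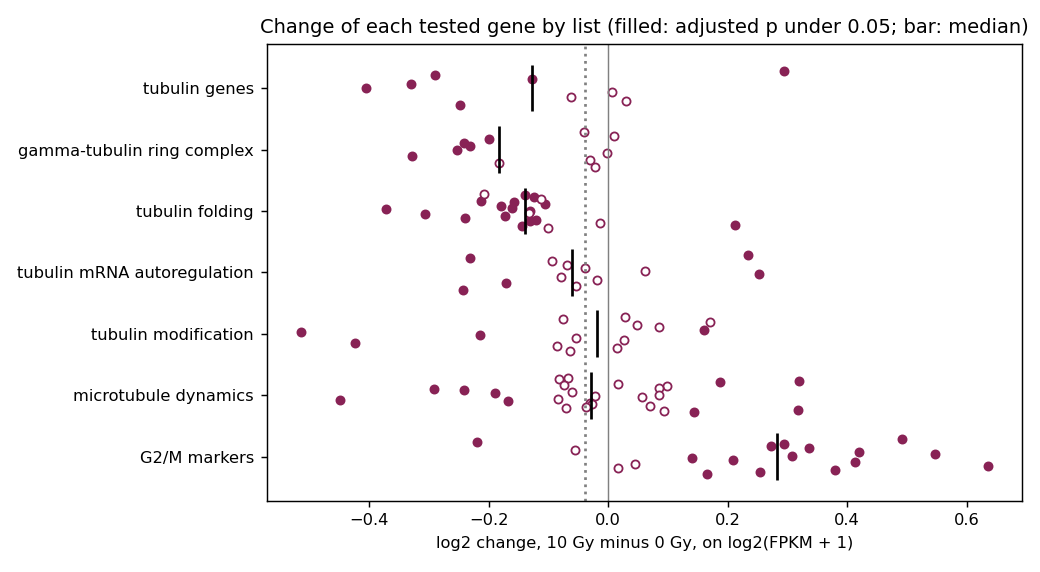
Change of every tested gene in log2(FPKM + 1), 10 Gy minus 0 Gy, by gene list, filled where the adjusted p was under 0.05. Black bars mark list medians, -0.13 for the tubulin genes and 0.28 for the G2/M markers, and the dotted line the median of all genes tested, -0.04.

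As a description over the 6 libraries, the protein-coding genes whose levels ran most like TUBB were CLCF1, F3 and CTCF, each with Pearson r of 0.999 on log2(FPKM + 1). Those most like TUBA1A were BUB1, APOBEC3F and BRD8, with r of 0.999, 0.998 and 0.997. Of 10473 genes compared, 1058 had r above 0.95 with TUBB and 390 with TUBA1A, and the 6 points share the split by dose.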

How the data were processed

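Expression of 6 MDA-MB-231 shSCR libraries, grouped by the dose in the labels, was analysed. The FPKM deposited by the authors were computed at the company that sequenced the polyA libraries (paired-end reads of 150 bases). Per the submitters' processing notes, HISAT2 and GRCh38 were used, and the counting program is not given in the sources used here. All 10 tubulin genes have the coordinates and exon lengths of GENCODE 29. FPKM multiplied by gene length and by the depth implied for the library gave whole reads for 100% of values (within 0.02 read). Each library had been divided by a depth of 0.973 to 0.991 times those reads at 0 Gy and 1.03 to 1.04 times at 10 Gy, so the deposited scale lowers 10 Gy values against 0 Gy values.

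The FPKM were compared in R 4.3.3 with limma 3.58.1 (eBayes with trend) on log2(FPKM + 1), a scale that understates changes of low genes, over the 12128 genes averaging 1 FPKM or more. Benjamini-Hochberg adjusted p under 0.05 was a call. No count test was run. Exact permutation tests, two-sided, were used for sums, shares and ratios. The procedure was tested on simulated data. Sequences came from GENCODE 29 and RefSeq, and figures were drawn with matplotlib 3.10.9.

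Named were all tubulin genes above, other tubulins averaging 1 FPKM or more, up to 3 called genes of each list with the largest change and up to 2 abundant ones not called, and the 3 genes most like TUBB and TUBA1A. Other genes were added after their values were seen: NEDD1, MZT2A, CNOT10, CNOT9, SCAPER, CCT5, TBCEL, SIRT2, AURKB, STK16 and the low tubulins and pseudogenes of the closing section. The members and lists were chosen with earlier results of these data known. Alternatives covered pseudocount, filter, scaling, eBayes settings, protein-coding genes alone, a replicate block and each library left out. Scaling to recovered reads and the use of transcript length were added after seeing the data. The ends of the alpha coding sequences are not reported here.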

Additional observations from a re-analysis of the deposited data

How the results depend on the processing

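The number of genes called, 4317, was 2660 to 3993 with 1 library left out (lowest without 10 Gy replicate 2, and 2705 without 10 Gy replicate 1), and 2 of the 18 alternatives moved it by over 1.5 times. Calls in the 7 gene lists, 56 in all, were 37 (without 10 Gy replicate 1) to 54 with 1 library left out and 37 to 58 over all 18 alternatives. Tubulin calls, 6, ranged from 5 to 7 over all 18 alternatives. The log2 difference of the beta to alpha ratio ranged from -0.00542 to 0.0266 with 1 library left out. The sign of TUBB4B turned under TPM (0.0656), upper quartile scaling (0.0292) and scaling to recovered reads (0.0121), the last chosen after seeing the data. With 1 library left out, TUBB4B ranged from -0.0809 to -0.0371, the latter without 0 Gy replicate 1. On the same basis TUBB2A ranged from -0.0257 to 0.0507 and TUBB6 from -0.00962 to 0.0719. Of all calls, 33.4% were higher as deposited, 74.5% under TPM, 48.7% under median-of-ratios, 63.9% under upper quartile and 58.1% under recovered-read scaling. Genes called higher and lower, 1443 and 2874, were 3113 and 1066 under TPM, 2556 and 1444 under upper quartile and 2294 and 1651 under recovered-read scaling. With no filter 1815 were lower, and with a minimum of 5 FPKM 874 were higher. Calls among folding genes, 16, were 4 under TPM, 6 under upper quartile, 7 under recovered-read and 9 under median-of-ratios scaling, and 8 with no filter.

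Libraries with the same replicate number did not deviate together (correlations of -0.04, -0.03 and -0.10, and 0 of 6 libraries correlated best with their own number). These correlations show no pairing by number, but with 3 libraries per group they cannot exclude it. A replicate block gave 3503 calls, with 10 among folding and 3 among autoregulation genes, and left TUBA1C at a limma adjusted p of 0.0687. It left the other tubulin calls in place. TUBB3 had 16 to 37 reads per library, too few for a statement on its change. Whether reads were lost to AC092143.1, which shares 88.7% of its windows and was listed at 0, was not tested.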

Other observations

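The table holds 25 tubulin genes that are not annotated as pseudogenes (TUBB8P12 and TUBA3FP, named as such, included), of which 13 had a mean of at least 1 FPKM and 2 were listed at 0 in all 6 libraries. TUBB1, the beta isotype of platelets, had means of 0.0530 FPKM at 0 Gy and 0.168 FPKM at 10 Gy with separate groups, on 0 to 9 reads per library at 0 Gy and 10 to 21 at 10 Gy. TUBAL3 had 0.148 and 0.264 FPKM with overlapping groups. Both were under the 1 FPKM minimum and were not tested.

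Of 38 tubulin pseudogenes, 25 were listed at 0 in every library and 2 had a mean of at least 1 FPKM. TUBBP1, which shares 63 windows of 150 bases with TUBB, was at 6.04, 7.08 and 4.99 FPKM at 0 Gy and at 5.12, 4.96 and 4.77 FPKM at 10 Gy, overlapping, with a change of -0.23 that was not called (limma, Benjamini-Hochberg adjusted p = 0.112). TUBAP2 had means of 1.37 and 1.26 FPKM and a change of -0.07 that was not called (limma, Benjamini-Hochberg adjusted p = 0.475). How many reads of TUBBP1 came from TUBB was not tested.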
